A study of Mus musculus with 12 samples.

Results

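MHC class I antigen presentation was followed through 10 genes of the mouse fetal ovary. They are the heavy chains H2-K1, H2-D1 and H2-T23, the light chain B2m, the peptide transporter subunits Tap1 and Tap2, the loading factor Tapbp, the immunoproteasome subunits Psmb8 and Psmb9, and the transactivator Nlrc5. The genes were chosen by name out of 54532 rows of the count table, and all 10 had a row. The set was drawn up with the fall of H2-K1 after dex already known, so differences of the members between dex and saline are given as a description and without a p-value.

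The study had 4 groups of 3 libraries, 12 libraries in all. Female embryos carrying the Tg(Pou5f1-EGFP)2Mnn transgene, whose Pou5f1 promoter fragment drives GFP in germ cells, were exposed through the dam. Dams received intraperitoneal dexamethasone (dex, a synthetic glucocorticoid) at 10 µg per gram or saline daily from E12.5 to E15.5, and ovaries were sorted at E15.5 into GFP+ germ cells and GFP– somatic cells. Each replicate pooled the ovaries of whole litters that were dosed independently. The GFP– fraction holds every cell type of the ovary that is not a germ cell, including vessels, blood and macrophages.

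Class I molecules display peptides from inside the cell to CD8+ T cells and serve as ligands of natural killer cell receptors. Proteasomes, among them the interferon-inducible immunoproteasome, cut proteins into peptides, the TAP1–TAP2 pump carries these into the endoplasmic reticulum, and tapasin (Tapbp) bridges the pump to a heavy chain held by B2m. A heavy chain without B2m or peptide is generally retained and degraded. In most tissues the genes are induced together by interferon and by NLRC5, which acts on the SXY module of their promoters, and fetal tissues are known for low class I levels.

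Libraries held 14658503 to 18245507 counted fragments, so that 3 counts, the floor used here, corresponded to 0.164 to 0.205 CPM (counts scaled to library size). Pou5f1 was at 14.2 to 25.8 CPM in the 6 germ cell libraries and at 0.00 to 0.12 CPM in the 6 somatic ones, and all 8 germ cell markers were higher in germ cells under saline and under dex. Fkbp5, a glucocorticoid receptor target, rose in somatic cells by 1.29 on the log2 scale (SE 0.08, BH-adjusted p = 2.61e-07 in edgeR). In germ cells Fkbp5 was at 0.33 (SE 0.08, adjusted p = 0.162 in edgeR) and was not called. It was called there with DESeq2 (0.327, adjusted p = 0.0417). Without the low-count filter edgeR also called it (0.324, adjusted p = 0.00716), so the germ cell call depended on the processing. The 8 stromal markers summed to 0.75% of the somatic level in saline germ cells and 0.79% in dex germ cells. The 12 macrophage markers summed to 14.6% and 33.1%, the 10 endothelial markers to 13.2% and 17.1%, and the 8 pregranulosa markers to 6.88% and 9.81%. The macrophage share moved mostly through its denominator, since the mean somatic sum fell after dex from 290 to 140 CPM. The mean macrophage sum of germ cells was 42.3 CPM without dex and 46.4 CPM with it.

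The promoters of H2-K1, H2-D1 and B2m are shown because these 3 genes had the highest heavy chain and light chain levels of the members in germ cells and differed in how they responded. RefSeq promoters (GRCm38.p6, 250 bases before to 50 after the start) were found for 8 of the 10 members. Tap2 and Nlrc5 were not among them. Each line is a stretch of 120 bases upstream of the RefSeq start, read 5′ to 3′ along the gene. The gene span in the count table begins further upstream for H2-D1, so that its stretch lies inside that span. Capitals mark matches, on either strand, to a kappaB-type motif (GGGNNTTCC), an interferon-type motif (GAANNGAAA or GAAANNGAA), the CRE motif TGACG and CCAAT, the last pair being the letters of the SXY module's X2 and Y boxes.
H2-K1, chr17:34000348-34000467, minus strand: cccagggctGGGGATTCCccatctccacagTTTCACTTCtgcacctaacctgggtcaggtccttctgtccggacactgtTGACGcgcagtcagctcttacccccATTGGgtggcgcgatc
H2-D1, chr17:35262914-35263033, plus strand: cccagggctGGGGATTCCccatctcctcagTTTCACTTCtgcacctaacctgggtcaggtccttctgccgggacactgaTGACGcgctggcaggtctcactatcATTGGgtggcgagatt
B2m, chr2:122147539-122147658, plus strand: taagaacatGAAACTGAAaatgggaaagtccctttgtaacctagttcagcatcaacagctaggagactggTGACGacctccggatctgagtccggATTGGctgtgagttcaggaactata

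The H2-K1 and H2-D1 stretches were identical at 107 of 120 bases (89.2%) and held the same matches in the same order. The kappaB-type motif was present in these 2 of the 8 members, against 5.82% of the 32851 promoters in the table. GAANNGAAA was found in the same 2 (7.52% of all promoters), GAAANNGAA in H2-T23 and B2m (8.56%), TGACG in 5 members (20.8%) and CCAAT in 7 (37.4%). The core of a glucocorticoid response element, ACANNNTGT, was found in none of the 8 within these 300 bases (6.85% of all promoters). Motifs were searched on both strands, and the interferon-type pair can overlap.

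All members but B2m and Nlrc5 lie in the major histocompatibility complex on chromosome 17 (mm10). H2-K1 (ENSMUSG00000061232) spans 33996017 to 34000333, H2-D1 (ENSMUSG00000073411) 35262730 to 35267499 and H2-T23 (ENSMUSG00000067212) 36029773 to 36032855. B2m (ENSMUSG00000060802) lies on chromosome 2 at 122147686 to 122153083, and Nlrc5 (ENSMUSG00000074151) on chromosome 8 at 94434356 to 94527272. Class I heavy chains are close paralogs, so reads can be shared. Of the distinct 100-base stretches in the annotated transcripts (GENCODE M21), 0.957% of those of H2-K1, 3.59% of those of H2-D1 and 3.15% of those of H2-T23 also occurred in another gene, and none of those of B2m. For Tapbp the share was 14.8%. Exons of other genes covered 29.0% of the exonic bases of Tapbp, 18.5% of those of Tap2 and 14.7% of those of Psmb8. For Tapbp and Tap2 these were mostly exons of the opposite-strand genes Gm19412 and Gm15821. Zbtb22, on the same strand as Tapbp, also overlapped its exons. Exons of other genes covered none of H2-K1, H2-D1, H2-T23 or B2m.

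In saline germ cells H2-D1 was the most abundant member per unit length. Its FPKM (fragments scaled to gene length and library size, as deposited) was 44.9, 54.2 and 55.2 in the 3 saline germ libraries and 8.30, 7.64 and 6.69 in the 3 saline somatic ones. H2-K1 was at 15.1, 16.3 and 16.2 FPKM in saline germ cells and at 3.75, 3.83 and 2.85 FPKM in saline somatic cells. Both classical heavy chains were thus higher in every germ cell library than in any somatic library of the same treatment. B2m, the light chain that every classical heavy chain needs for surface display, had the opposite order. It was at 8.93, 11.5 and 10.2 FPKM in saline germ cells and at 106, 102 and 93.1 FPKM in saline somatic cells.

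The order of levels therefore differed between the cell types. In saline germ cells it ran H2-D1, H2-K1, B2m (8.93 to 11.5 FPKM) and Tapbp (2.69 to 3.23 FPKM), with no overlap between neighbours. H2-T23, a nonclassical heavy chain that presents leader peptides of other class I chains (0.293 to 0.931 FPKM), overlapped with Tap1 (0.278 to 0.394 FPKM). Tap2, Psmb8, Psmb9 and Nlrc5 were at or below 0.108 FPKM in saline germ cells. In saline somatic cells B2m led, followed by Tapbp (16.2 to 18.0 FPKM), H2-D1 and H2-K1, again without overlap between neighbours. Tap1 followed at 1.49 to 1.75 FPKM, above H2-T23 (0.529 to 0.979 FPKM), which overlapped with Tap2 (0.501 to 0.888 FPKM).

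**Figure D1:**
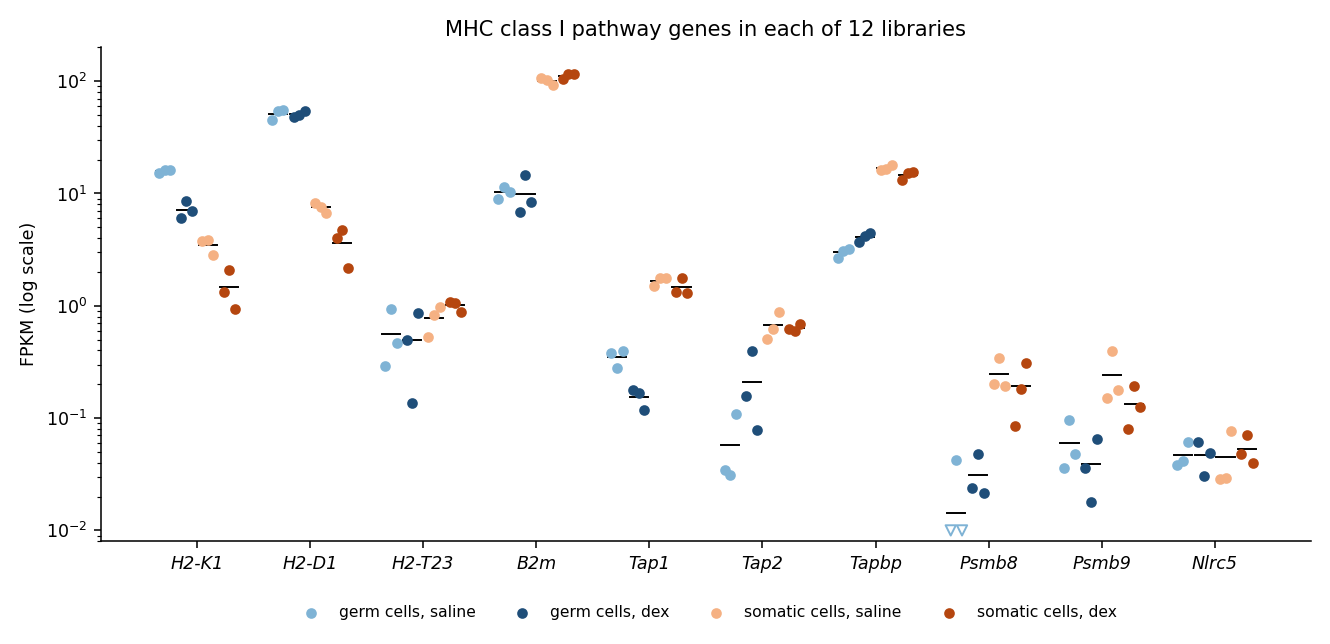
FPKM of the 10 members on a log axis, with 1 point per library, 3 per group, and a line at each group mean. Open triangles at the bottom stand for values of 0 (Psmb8 in saline germ cells); H2-D1 and H2-K1 points lie higher in germ cells, and B2m, Tapbp and Tap1 points lie higher in somatic cells.

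Germ cells and somatic cells were compared within each treatment to ask where the pathway was expressed. Under saline 6 of 7 members tested were called, 2 higher in germ cells and 4 lower, where 86.1% of all genes tested were called. Under dex the calls were again 2 higher and 4 lower of 7, where 84.3% of all genes were called. With most genes of the genome differing between the cell types, these counts are near the background, and the sizes and directions carry the description.

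H2-D1 was 6.55-fold higher in germ than in somatic cells under saline (131 ± 14.1 against 20.1 ± 2.14 CPM, SD, n = 3), a log2 difference of 2.72 (SE 0.10, BH-adjusted p = 2.74e-12 in edgeR). Under dex the ratio was 13.6-fold (131 ± 6.66 against 9.66 ± 3.39 CPM, log2 fold change 3.74, SE 0.20, adjusted p = 1.16e-08). H2-K1 was 4.38-fold higher under saline and 4.78-fold higher under dex. B2m went the other way, at 8.70 ± 1.11 CPM in germ and 89.0 ± 5.92 CPM in somatic cells under saline (log2 fold change -3.34, SE 0.11, adjusted p = 3.97e-13) and at 8.64% of the somatic level under dex (log2 fold change -3.55, SE 0.21, adjusted p = 3.29e-08). Messages of the classical heavy chains H2-K1 and H2-D1 were thus higher in germ cells, and that of the light chain in somatic cells.

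The members for transport and loading, Tap1, Tap2 and Tapbp, followed B2m, while loading genes outside the set were split, as given below. Tapbp was at 17.1% of the somatic level in saline germ cells (log2 fold change -2.53, SE 0.11, adjusted p = 1.01e-11) and at 27.2% in dex germ cells (-1.89, SE 0.12, adjusted p = 5.95e-08). Tap1 was at 20.2% (log2 fold change -2.29, SE 0.23, adjusted p = 1.85e-07) and 10.3% (-3.30, SE 0.29, adjusted p = 1.07e-06). Tap2 rested on 2, 2 and 7 counts in saline germ cells and on 31, 38 and 57 counts in saline somatic cells, with a log2 fold change of -3.53 (SE 0.51, adjusted p = 1.16e-05). H2-T23 did not pass the test, at -0.50 (SE 0.41, adjusted p = 0.266) under saline and -1.07 (SE 0.50, adjusted p = 0.0643) under dex. Under saline its germ and somatic ranges overlapped.

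The immunoproteasome subunits were scarce. Psmb8 had 0, 2 and 0 counts in saline germ cells and 9, 15 and 9 in saline somatic cells, and Psmb9 had 2, 6 and 3 against 9, 23 and 11. The germ and somatic counts did not overlap for either gene. Neither passed the filter on low counts in these comparisons. Without that filter both were called under saline and Psmb8 under dex, and Psmb9 also passed filter and test under saline without germ replicate 1, 2 or 3 or somatic replicate 1. Germ cell values at or near 3 counts were not separable from 0 at this depth. Nlrc5, the class I transactivator, had 5, 6 and 9 counts in saline germ cells and 4, 4 and 11 in saline somatic cells. Its CPM ranges overlapped in all 4 comparisons of a pair of groups, and it did not pass the filter either.

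The remaining genes of the pathway were taken from lists, which were also chosen with earlier results of these data known. Of 91 genes tested in the 10 lists under saline 90.1% were called, beside 86.1% of all genes, so the counts below are read for direction and size. Psmb10, the third immunoproteasome subunit, and Psme1 and Psme2, which form the PA28 activator, were lower in saline germ cells by log2 values of -3.61, -3.82 and -3.75 (SE 0.30, 0.11 and 0.21, adjusted p = 2.12e-08, 1.35e-13 and 1.9e-10). Of 14 subunits of the standard 20S proteasome core 12 were called under saline, 7 higher and 5 lower in germ cells, with a median log2 fold change of 0.08. Of 7 peptide loading and quality control genes of the endoplasmic reticulum all 7 were called, 4 higher and 3 lower, for example Calr at 0.40 (SE 0.07) and Pdia3 at -0.87 (SE 0.07). In the same list Tapbpl was higher (0.79, SE 0.17) and Erap1 lower (-0.77, SE 0.15) under saline. Under dex they were at 1.6 (SE 0.21) and -0.87 (SE 0.16). The interferon-inducible proteasome parts were thus lower together, while the constitutive core and the loading and quality control genes were split.

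Interferon-stimulated genes were lower in germ cells throughout, 19 of 19 tested under saline and 20 of 20 under dex, with medians of -4.08 and -4.09. Among interferon receptors, STATs and IRFs 10 of 12 were called under saline, 3 higher and 7 lower. Ifngr2 (-4.23, SE 0.13) and Ifnar2 (-5.69, SE 0.20), subunits of the interferon gamma and alpha/beta receptors, and the factor Irf1 (-2.47, SE 0.14) were lower. The kinase Jak1 was among the 3 higher genes (0.55, SE 0.07). Of 8 factors that bind the SXY module 7 were called, 4 higher and 3 lower, with Rfx5 higher (0.74, SE 0.10) and Creb1 lower (-1.12, SE 0.09). Summed over the list, SXY factors reached 98.8% of the somatic level in saline germ cells, and interferon-stimulated genes 13.0%. Interferon receptors, STATs and IRFs summed to 98.6%, with a list median log2 fold change of -1.35.

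Other class I heavy chains divided between the fractions. Of 31 listed, 28 had a row and 11 were tested under saline, of which 5 were higher and 4 lower in germ cells. H2-Q2 was higher (log2 fold change 5.66, SE 0.50, adjusted p = 5.47e-08), at 4.17 to 5.23 CPM in saline germ cells and 0.00 to 0.13 CPM in saline somatic cells. H2-T22, a ligand of some gamma delta T cell receptors, was lower (-5.28, SE 0.41, adjusted p = 1.17e-08), as were H2-T10 (-4.55, SE 0.44) and H2-Q4 (-2.03, SE 0.21). In saline somatic cells H2-Q4 was at 3.91 to 5.49 FPKM, above every H2-K1 value there. H2-M3, which presents N-formyl peptides, was at 0.12 to 0.26 CPM in saline germ and 0.44 to 1.03 CPM in saline somatic cells and was not tested. Of the 7 class I-like molecules 6 were tested under saline and all were called, 5 of them lower in germ cells, such as Fcgrt, the IgG transport receptor (-5.23, SE 0.17). In the class II pathway 3 genes were higher and 3 lower of 6 tested, with Cd74 (-4.78, SE 0.41) and Ciita, the class II transactivator (-2.28, SE 0.49), lower and H2-Ab1 higher (3.65, SE 0.35).

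**Figure D2:**
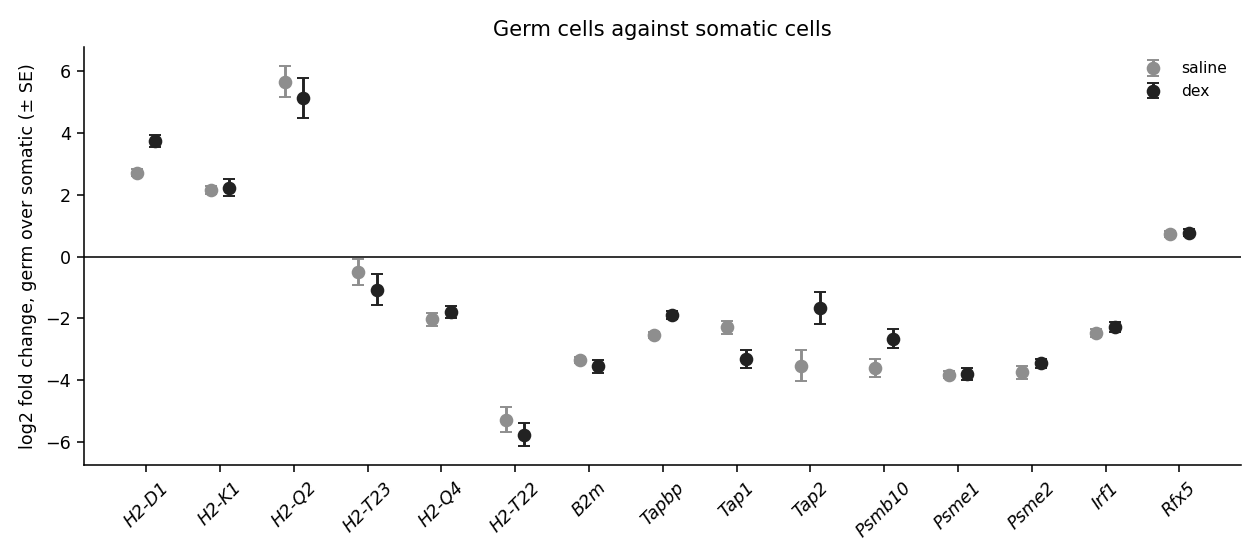
Log2 fold change of germ over somatic cells with its SE, under saline (grey) and dex (black), from 3 against 3 libraries each. Points above 0 are higher in germ cells: H2-D1, H2-K1, H2-Q2 and Rfx5 lie above 0 and B2m, Tapbp, Tap1, Tap2 and the immunoproteasome parts below.

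H2-K1 and H2-D1 together made up 85.1% to 85.7% of the summed FPKM of 31 class I heavy chain genes (the 28 above and the 3 members) in saline germ cells and 36.2% to 50.8% in saline somatic cells. Set against B2m, their summed FPKM was 6.72, 6.13 and 6.98 times that of B2m in the 3 saline germ libraries and 0.113, 0.112 and 0.103 times in the 3 saline somatic ones. Under dex the ratio was 7.87, 3.98 and 7.33 in germ cells and 0.0513, 0.0588 and 0.0271 in somatic cells. Germ and somatic libraries did not overlap. The ratio was chosen after the values were seen, and it is given as a description with no test. B2m in germ cells, at 9.77% of the somatic level under saline, lay above the 0.75% of the stromal markers and below the 14.6% of the macrophage markers, and the part of sorted-in somatic cells in the germ cell B2m level was not tested.

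**Figure D3:**
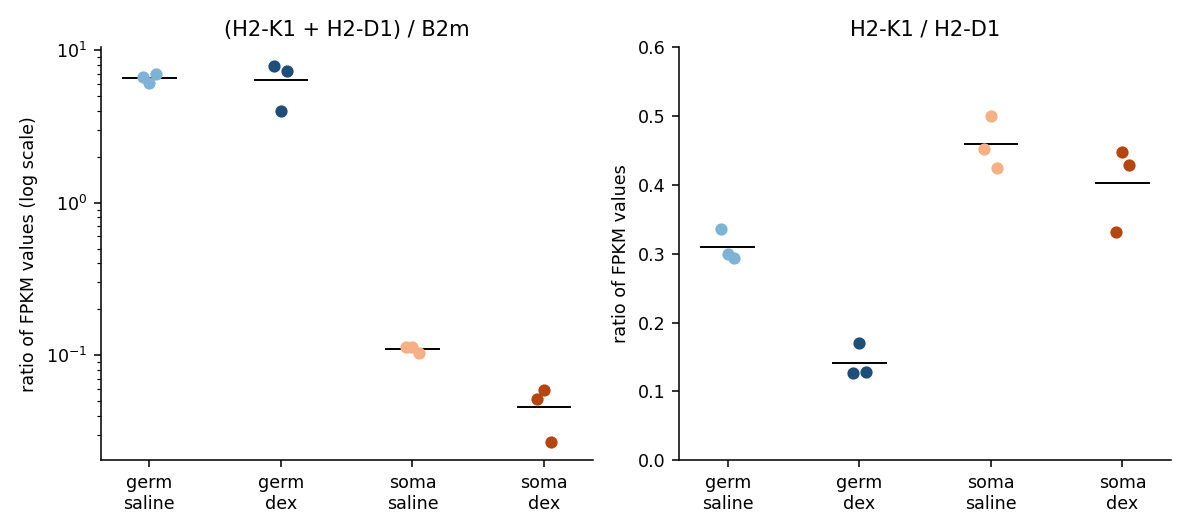
Ratios of FPKM values within each library, with a line at each group mean (n = 3). On the left, on a log axis, H2-K1 plus H2-D1 over B2m lies between 3.98 and 7.87 in germ cells and between 0.0271 and 0.113 in somatic cells; on the right, on a linear axis, H2-K1 over H2-D1 is lowest in dex germ cells.

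In germ cells dex was compared with saline to ask whether the hormone acted on the pathway there. H2-K1 was at 39.1, 42.3 and 41.4 CPM in saline germ cells and at 16.1, 22.1 and 18.0 CPM in dex germ cells. All 3 dex values lay below all 3 saline values, with a log2 fold change of -1.12 (SE 0.12). H2-D1, its neighbour in function and sequence, was at 115, 139 and 140 CPM under saline and 126, 128 and 139 CPM under dex. The H2-D1 groups overlapped almost entirely, with a log2 fold change of 0.01 (SE 0.08). The H2-K1 to H2-D1 ratio of FPKM was accordingly 0.310 ± 0.023 under saline and 0.142 ± 0.025 under dex (SD, n = 3), without overlap.

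H2-K1 was the 1 member of 6 tested that was called in germ cells, against 0.208% of all genes tested in this comparison. The call is part of what chose the set and is given without a test. B2m was at 7.62, 9.85 and 8.63 CPM under saline and 6.02, 12.6 and 7.11 CPM under dex (log2 fold change -0.01, SE 0.25), with overlapping groups. Tap1 was at 2.07, 1.52 and 2.11 CPM under saline and 1.00, 0.90 and 0.64 CPM under dex. Its groups were apart, with a log2 fold change of -1.15 (SE 0.36), and it was not called. Tapbp was at 8.79, 10.1 and 10.5 CPM under saline and 12.4, 13.8 and 14.6 CPM under dex. It was also apart and not called (0.48, SE 0.15). With 3 libraries per group, such a separation is a description only, and its share over all genes is not given here.

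H2-T23 ranged from 0.84 to 2.68 CPM under saline and from 0.39 to 2.45 CPM under dex (log2 fold change -0.16, SE 0.57, between -0.80 without dex replicate 3 and 0.42 without saline replicate 2). Tap2, Psmb8, Psmb9 and Nlrc5 fell under the low-count filter in germ cells. Tap2 had 2, 2 and 7 counts under saline and 9, 23 and 5 under dex, and these overlapped. The summed class I heavy chain counts of 31 genes had a log2 fold change of -0.15 (SE 0.07), from 199 ± 18.0 to 179 ± 6.47 CPM, of which H2-D1 alone held 131 CPM under either treatment.

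None of the 71 genes tested in the 10 pathway lists was called in germ cells by edgeR or by DESeq2, where 0.208% of all genes were called by edgeR. An unadjusted p under 0.05 in edgeR was found for 9 of the 71 (12.7%), beside 11.6% of all genes. Psmb10 had a log2 fold change of 0.56 (SE 0.43), Psme1 -0.06 (SE 0.24), Psme2 0.06 (SE 0.31), Irf1 -0.13 (SE 0.19) and Rfx5 -0.14 (SE 0.09). Adjusted p for these 5 lay between 0.566 and 0.962 (edgeR, BH). The signs for Psme1 and Psme2 changed when single libraries were left out. H2-Q4 was at 0.16 (SE 0.25, adjusted p = 0.835).

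**Figure D4:**
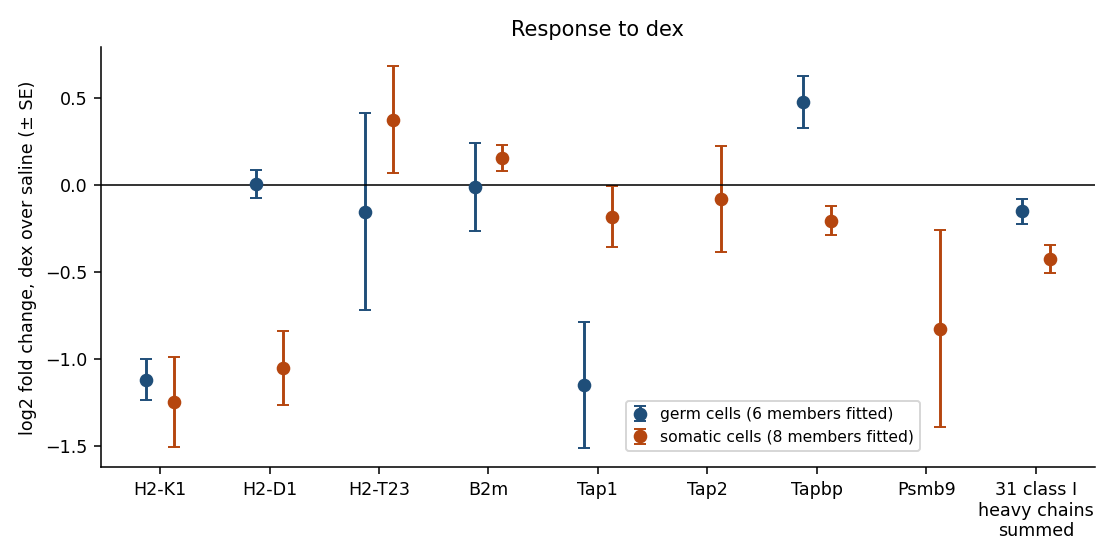
Log2 fold change of dex over saline with its SE for members that passed the low-count filter and for the summed counts of 31 class I heavy chain genes. Germ cells are blue and somatic cells orange: H2-K1 lies below -1 in both, H2-D1 only in somatic cells, and B2m lies near 0 in both.

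In somatic cells both classical heavy chains were lower after dex. H2-K1 was at 10.1, 10.3 and 7.65 CPM under saline and 3.56, 5.63 and 2.56 CPM under dex (log2 fold change -1.25, SE 0.26). H2-D1 was at 22.02, 20.4 and 17.8 CPM under saline and 10.6, 12.4 and 5.89 CPM under dex (log2 fold change -1.05, SE 0.21). Neither gene overlapped between groups. As in germ cells, such a separation, also that of Tapbp below, is a description only, and its share over all genes is not given here. Their FPKM ratio was 0.459 ± 0.038 under saline and 0.403 ± 0.062 under dex, with overlapping values, unlike in germ cells where it was apart. They were the 2 members called of 8 tested, against 8.18% of all genes. The set was drawn up with the fall of H2-K1 known, so this count is a description only. Without saline replicate 2 the H2-K1 call was lost, with a log2 fold change of -1.17.

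The other 6 members tested were not called in somatic cells, and Psmb8 and Nlrc5 did not pass the low-count filter. B2m was at 93.9, 90.7 and 82.5 CPM under saline and 92.1, 102 and 104 CPM under dex (log2 fold change 0.15, SE 0.07), overlapping. Tapbp was at 55.0, 55.7 and 61.2 CPM under saline and 44.8, 51.1 and 53.5 CPM under dex. Its groups were apart, in the direction opposite to germ cells, with a log2 fold change of -0.21 (SE 0.08). Tap1 (-0.18, SE 0.18), Tap2 (-0.08, SE 0.31), H2-T23 (0.37, SE 0.31) and Psmb9 (-0.83, SE 0.57) all had overlapping groups. Psmb9 had 9, 23 and 11 counts under saline and 5, 13 and 8 under dex. The summed class I heavy chain counts had a log2 fold change of -0.43 (SE 0.08), from 69.6 ± 3.13 to 51.9 ± 4.20 CPM.

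Of 92 genes tested in the 10 pathway lists 6 passed the test in somatic cells, a share of 6.52% beside 8.18% of all genes, so that the lists held no more calls than the background. The count was 11 without dex replicate 3 and 3 without any other single library. Irf2, a factor that competes with Irf1 at interferon response elements, rose from 17.3 to 19.9 CPM under saline to 39.2 to 42.4 CPM under dex (a log2 change of 1.11, SE 0.10, BH-adjusted p = 8.04e-06 in edgeR). Jak1, a kinase of interferon and other cytokine receptors, rose (0.45, SE 0.07, adjusted p = 0.000725). Irf1 itself was at -0.37 (SE 0.12, adjusted p = 0.0813) and Psme2 at -0.29 (SE 0.09, adjusted p = 0.066). These 2 passed the threshold with DESeq2 (adjusted p = 0.0463 and 0.0488), and in edgeR with the replicate number as a block (0.0289 and 0.0306), without the low-count filter (0.0113 and 0.018) and without dex replicate 3 (0.00944 and 0.0243). The 23 interferon-stimulated genes tested included 1 call, Gbp2, which fell (-0.64, SE 0.17, adjusted p = 0.0362), and the median of the list was 0.02 beside 0.00 over all genes.

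Cd1d1, which presents lipids to natural killer T cells, fell (-0.53, SE 0.15, adjusted p = 0.042), and so did Cd74, the class II invariant chain (-1.20, SE 0.25, adjusted p = 0.00829). Atf1, one of the CREB family factors that can bind the X2 box, rose (0.27, SE 0.08, adjusted p = 0.0439). The calls of Cd1d1, Atf1 and Gbp2 were each lost in 5 of 6 omissions of a single library and kept without dex replicate 3. No class I heavy chain among the 9 tested outside the member set was called by edgeR or DESeq2 (1 had an unadjusted p under 0.05 in edgeR), with H2-Q4 at -0.11 (SE 0.16) and H2-T22 at 0.08 (SE 0.21, adjusted p = 0.87). H2-M3 was at 0.62 (SE 0.51), Ciita at 0.56 (SE 0.37), Rfx5 at -0.22 (SE 0.11), Psmb10 at -0.43 (SE 0.20) and Psme1 at -0.12 (SE 0.07), none of them called. No gene was called by edgeR or DESeq2 among the 7 loading factors, the 14 standard proteasome core subunits or the 4 parts of Polycomb repressive complex 2, which can silence class I genes. At an unadjusted p under 0.05 in edgeR these lists held 1, 1 and 0 genes.

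Macrophage markers, like H2-K1 and H2-D1, were lower on average after dex in somatic cells. Of 12 macrophage markers 7 fell, with a list median of -0.87. With 1 library left out 5 to 9 were called, 5 without saline replicate 2 or without saline replicate 3. Csf1r, the receptor for the macrophage growth factor, went from 45.9, 57.9 and 64.6 CPM under saline to 10.8, 28.8 and 28.4 CPM under dex (log2 fold change -1.31, SE 0.26, adjusted p = 0.00634). Adgre1, which encodes F4/80, had a log2 fold change of -1.78 (SE 0.32, adjusted p = 0.00346). The 12 genes summed to 251 to 319 CPM under saline and 80.5 to 178 CPM under dex, 2.07-fold lower, and no defining marker was at 0. The lowest macrophage sum was in dex replicate 1, whereas H2-K1 and H2-D1 were lowest in dex replicate 3. Under saline the macrophage sum was highest in replicate 3, where H2-K1 and H2-D1 had their lowest saline values.

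Of 10 endothelial markers 4 fell and 1 rose. Leaving out 1 library gave 1 to 5 calls in this list, with 1 call without saline replicate 2 or saline replicate 3, 2 without dex replicate 1 and 3 without dex replicate 2. The summed endothelial level was 375 to 453 CPM under saline and 332 to 373 CPM under dex. Cdh5, a junction protein of endothelium, was at -0.50 (SE 0.10, adjusted p = 0.00862, and 0.0597 without saline replicate 3), and Pecam1 at -0.27 (SE 0.11, adjusted p = 0.19). Of 10 lymphoid markers 2 passed the low-count filter, and neither was called by edgeR or DESeq2 or had an unadjusted p under 0.05. Cd3e, a T cell marker, was at 0.06 to 0.30 CPM in somatic cells. Markers of other cells also moved. Germ cell markers summed to 5.91 to 9.93 CPM in saline and 16.5 to 24.3 CPM in dex somatic libraries, and Dazl, a germ cell RNA-binding protein, was the 1 of 5 tested that was called (3.43, SE 0.21, adjusted p = 2.92e-07). Among 8 pregranulosa markers Wnt4 was called lower (-0.24, SE 0.06, adjusted p = 0.0373), where 7 were called without dex replicate 3 and 0 without any other library. Among 8 stromal markers Pdgfra was called higher (0.62, SE 0.07, adjusted p = 0.000101), where 4 were called without dex replicate 3. Of 7 perivascular markers 2 were called, 1 higher and 1 lower, and 2 to 3 were called with single libraries left out. Erythroid markers summed to 7390 to 12459 CPM under saline and 3312 to 16492 CPM under dex. The part of these cell types in the somatic heavy chain values was not tested. In these bulk samples fewer cells of a type and less RNA per cell cannot be told apart. In germ cells the macrophage sum was 37.1 to 46.5 CPM under saline and 38.7 to 52.9 CPM under dex, with overlapping groups and no marker called.

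**Figure D5:**
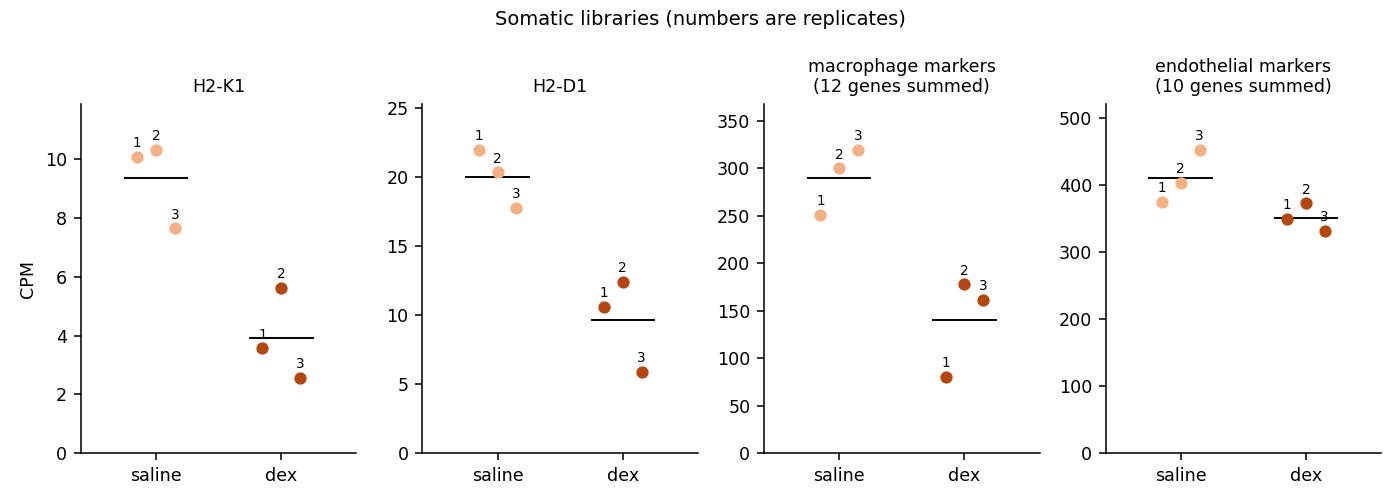
CPM of H2-K1 and H2-D1 and summed CPM of 12 macrophage and 10 endothelial markers in the 6 somatic libraries, with replicate numbers, a line at each mean and every axis starting at 0. All 3 dex libraries lie below all 3 saline libraries in each of the 4 panels, and dex replicate 1 is lowest for macrophage markers and dex replicate 3 for H2-K1 and H2-D1.

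The dex response of the members was then compared between the cell types in a single fit of all 12 libraries, as germ response minus somatic response. H2-D1 (1.05, SE 0.23) and Tapbp (0.67, SE 0.15) were called of 8 members tested, against 1.62% of all genes. For a set chosen with results of these data known, this count too is a description only. For H2-K1 the difference was 0.12 (SE 0.28), for B2m -0.18 (SE 0.24), for Tap1 -0.98 (SE 0.36) and for Tap2 1.89 (SE 0.77). The Tap2 difference was 1.08 without germ dex replicate 2 and 2.70 without germ saline replicate 3. The H2-D1 call was lost in 3 of 12 omissions of a single library (germ dex replicate 3, somatic saline replicate 1 and somatic saline replicate 2, with differences of 0.98 to 1.04), and the Tapbp call in 8 of 12 (0.60 to 0.71).

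Across the 12 libraries, 4 of the 5 genes most like H2-K1, by Pearson correlation of log2 CPM over 16146 genes whose mean reached 1 CPM, were Lonrf1 (0.97), Tent5c (0.96), Wdr77 (0.95) and C2cd2 (0.95). Libraries of the same group and cell type enter every such value, so it is a description. None of the 4 was a member, and their means moved less with dex than H2-K1 did: Lonrf1, for example, had means of 65.9 and 58.1 CPM in saline and dex germ cells and 43.2 and 34.1 CPM in saline and dex somatic cells.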

How the data were processed

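Poly(A) RNA of sorted cells was sequenced as paired-end Illumina libraries. The authors aligned reads to mm10 with HISAT2 2.0.5 and counted them per gene with featureCounts 1.5.0-p3, and they deposited raw counts per gene and FPKM values (fragments scaled to gene length and library size). The strand setting and the handling of multimapping reads were not given in the sources used here. Tables of the authors' own comparison (fold changes and p-values) were not used.

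Counts were scaled by TMM and tested with edgeR 4.0.16 (quasi-likelihood, filterByExpr, R 4.3.3) within each pair of groups, or over all 12 libraries for the difference of responses. P-values were adjusted over all genes tested by Benjamini-Hochberg, and a gene was called at an adjusted p of at most 0.05. CPM are TMM-scaled over 12 libraries. Levels of different genes were compared only in the deposited FPKM. The test was checked on simulated data. The simulation gave every gene the same dispersion and changed only genes above a mean count, so it does not cover genes with few counts. The members, the 10 pathway lists and the 8 marker lists (190 symbols, 3 without a row) were chosen with earlier results of these data known. Named were all members, up to 4 called genes per pathway list and comparison by unadjusted p, 10 regulators and heavy chains, the 5 genes most like H2-K1 and the defining markers; some of these are not reported here. Replicates were separate pools of litters, and no 2 libraries agreed within sampling noise. Intervals cover counting and replicate error only. Alternatives were DESeq2 1.42.0, RLE factors, no low-count filter, at least 1 CPM in 3 libraries, a replicate block, heavy chain counts summed and each library left out.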

Additional observations from a re-analysis of the deposited data

Results flagged for a closer look

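The response to dex differed between germ and somatic cells, by the interaction term of the fit over 12 libraries, for 3 genes of the pathway, where 1.62% of all genes were called. Of the 8 members tested 2 were called, and of 100 other pathway genes 1. For H2-D1 the germ response minus the somatic response was 1.05 on the log2 scale (0.01 in germ cells, -1.05 in somatic cells). For Tapbp it was 0.67 (0.48 in germ cells, -0.21 in somatic cells, neither called on its own). For Jak1 it was -0.55 (-0.09 in germ cells, 0.45 in somatic cells, edgeR BH-adjusted p = 0.00638 for the difference). H2-D1 and Tapbp belong to the set drawn up with results of these data known, so their values are a description. The pathway list that holds Jak1 was also chosen with earlier results of these data known, so its adjusted p is not independent of them. With single libraries left out the H2-D1 call was lost in 3 of 12 cases and the Tapbp call in 8 of 12.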

How the results depend on the processing

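Counts of members called in germ cells under dex (1) and in germ against somatic cells (6 under either treatment) kept within 1.5 times their value under DESeq2, RLE factors, no low-count filter, a filter of at least 1 CPM in 3 libraries and the replicate block. Leaving out single libraries gave 1 to 2 members called in somatic cells and 0 to 2 for the difference of responses. The replicate block gave 1, 2, 2, 6 and 6 members called in the 5 comparisons, as without it. Same-numbered libraries had correlations of deviations of -0.02 to 0.10 over 12 pairs, and the main fits did not pair them. Between germ and somatic libraries of the same treatment, same-numbered pairs lay at 0.04 to 0.074. Pairs with different numbers lay at -0.0438 to -0.0024 there. Whether same-numbered germ and somatic libraries came from the same pool of ovaries was not tested, and only the replicate block allowed for it. Over all genes, germ cell calls went from 35 to 160 with DESeq2, 420 without the low-count filter and 17 (without dex replicate 2 or saline replicate 3) to 81 (without dex replicate 1) with single libraries left out, and calls for the difference from 314 to 650, 727 and as few as 143 (without somatic saline replicate 3). Somatic calls, 1354, numbered 754 when saline replicate 3 was left out and 1881 when dex replicate 3 was. In germ cells under dex, genes that were not called changed sign: with single libraries left out Psme1 ran from -0.364 to 0.072 and Psme2 from -0.242 to 0.337. Among members there, H2-T23 ran from -0.797 to 0.418, B2m from -0.403 to 0.173 and H2-D1 from -0.082 to 0.049. In somatic cells Tap2 ran from -0.262 to 0.167 and H2-T22 from -0.065 to 0.399. H2-T23 was called in germ against somatic cells without saline germ replicate 2 (-1.07), and under dex without germ replicate 3 (-1.68) or without the low-count filter (-1.03). Psmb9 was called under saline without any 1 of the 3 germ libraries or without somatic replicate 1, and Psmb8 and Psmb9 under saline and Psmb8 under dex without the low-count filter. The cause of these changes was not tested. Values of Tap2, Psmb8, Psmb9 and Nlrc5 in germ cells rest on 0 to 23 counts, which limits any comparison of them.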
